A study of Mus musculus with 60 samples.

Results

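The DNA replication machinery was described through 47 genes, chosen by symbol from a fixed list of replication proteins, out of 27238 genes in the expression table. Levels were read counts scaled to transcript length and library size (RPKM), from 60 single-embryo or donor-cell libraries in 20 groups of 3. The strain of every sample is given as BDF1, the cross of C57BL/6 with DBA2. The in vivo embryos came from superovulated C57BL/6 females mated with DBA2 males and were collected as pronuclear (1-cell), 2-cell, 4-cell and 8-cell embryos, as morulae and as blastulae. The NTC embryos were made by moving the nucleus of a cumulus cell (CC), a somatic cell that surrounds the oocyte, into an enucleated BDF1 oocyte. The NTM embryos were made in the same way from mouse embryonic fibroblasts (MEF), which were taken from fetuses, passaged a few times and serum-starved. Both kinds of nuclear transfer (NT) embryo were activated with strontium chloride in the presence of cytochalasin B and Scriptaid, a histone deacetylase inhibitor, and were cultured in vitro to the same 6 stages. The in vivo embryos were not cultured, and their oocytes came from C57BL/6 and not from BDF1 females. Culture, activation, the drug, the oocyte's strain and nuclear transfer therefore cannot be told apart in any comparison of NT with in vivo embryos. Embryos were picked by their morphology, and the 3 libraries of a group come from separate collections according to the submitters.

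A cell must copy its genome once per division. The origin recognition complex (ORC), with Cdc6 and Cdt1, loads the ring-shaped Mcm2 to Mcm7 helicase on DNA before S phase, and geminin (Gmnn) blocks Cdt1 afterwards so that no origin is used again. Kinases then switch the helicase on by adding Cdc45 and the GINS complex, after which polymerases, the sliding clamp PCNA and its loader RFC copy the strands, RPA covers single-stranded DNA and ribonucleotide reductase (Rrm1 and Rrm2) makes the nucleotides. Early mouse embryos divide with little growth, at first on proteins and mRNA that the oocyte stored, and their own genome is switched on in the main at the 2-cell stage. In these libraries stored oocyte mRNA and new mRNA cannot be told apart. Where an embryo holds several cell types, fewer cells of a type and less RNA per cell cannot be told apart either.

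Sequencing depth ran from 5294167 to 47830132 reads on genes, and 3 reads on a transcript of 2000 bases, the limit used for a value of 0, correspond to 0.0314 to 0.283 RPKM. Of the 47 members, 46 passed the filter of a mean of 0.5 RPKM over the embryo libraries. The exception was Fen1, the flap endonuclease, listed at 0 in 53 of 60 libraries. In the annotation used here, 84.2% of its exon bases are shared with other genes, and it is not considered further. For Gins2 that share was 67.3%, and 6 members, these 2 and Orc2, Orc4, Rfc2 and Rfc5, have stretches of at least 300 bases identical to a transcript of another gene. A near copy in a processed pseudogene was found for 5 members (Pcna, Mcm7, Cdc6, Rfc5 and Rrm2), so that their reads could have been split between copies. The in vivo 4-cell libraries stood apart from the NT libraries of that stage. They held 13576 to 13932 genes above 0, against 10824 to 11929 in NTC and 8997 to 10930 in NTM, and mitochondrial genes took 5.68 to 8.87% of their reads, against 29.6 to 40.4% in the NT 4-cell libraries. At this stage the members varied least between in vivo embryos, with a median SD of 0.32 on the log2(RPKM + 1) scale. The members varied most in CC (1.44), in vivo blastulae (1.40) and MEF (1.22). Fibroblast markers summed to 5688 to 8281 RPKM in MEF and 72.6 to 162 RPKM in CC. The cumulus markers did not separate the donor cells, with 459 to 1134 RPKM in CC and 517 to 1230 RPKM in MEF.

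Across the 18 embryo groups, ribonucleotide reductase subunit Rrm2 had the widest range of group means, 6.94 on the log2(RPKM + 1) scale. It was followed by Gins1 (5.97) and Gins3 (5.42) of the GINS complex, Cdc45 (5.86) and the fork protection gene Timeless (5.67). The narrowest ranges among the other members were those of Pole (1.89) and Pola1 (2.08), catalytic subunits of polymerases epsilon and alpha, DNA ligase Lig1 (2.10) and Orc6 (2.12). Low levels limit the ranges of Pole and Lig1, whose highest group means were 1.91 and 2.36 on this scale. The in vivo 4-cell group held the highest mean for 14 of 46 members (30.4%), against 20.9% of all genes tested, and the NTM 1-cell group for 9 (19.6%), against 10.2% of all genes. By role, the medians of the MCM helicase, helicase activation and reductase genes in vivo were 4.56, 5.14 and 6.68 at the 4-cell stage, up from 2.44, 2.37 and 2.09 at the 2-cell stage. The median of the 3 fork protection genes had the other order, with 4.34, 3.26 and 2.86 at the 1-, 2- and 4-cell stages. These medians are levels on the log2(RPKM + 1) scale and were not tested. That of the fork protection genes fell on different genes at the 2-cell and 4-cell stages. Over that step 1 of these genes, Tipin, was called higher and 0 were called lower.

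**Figure D1:**
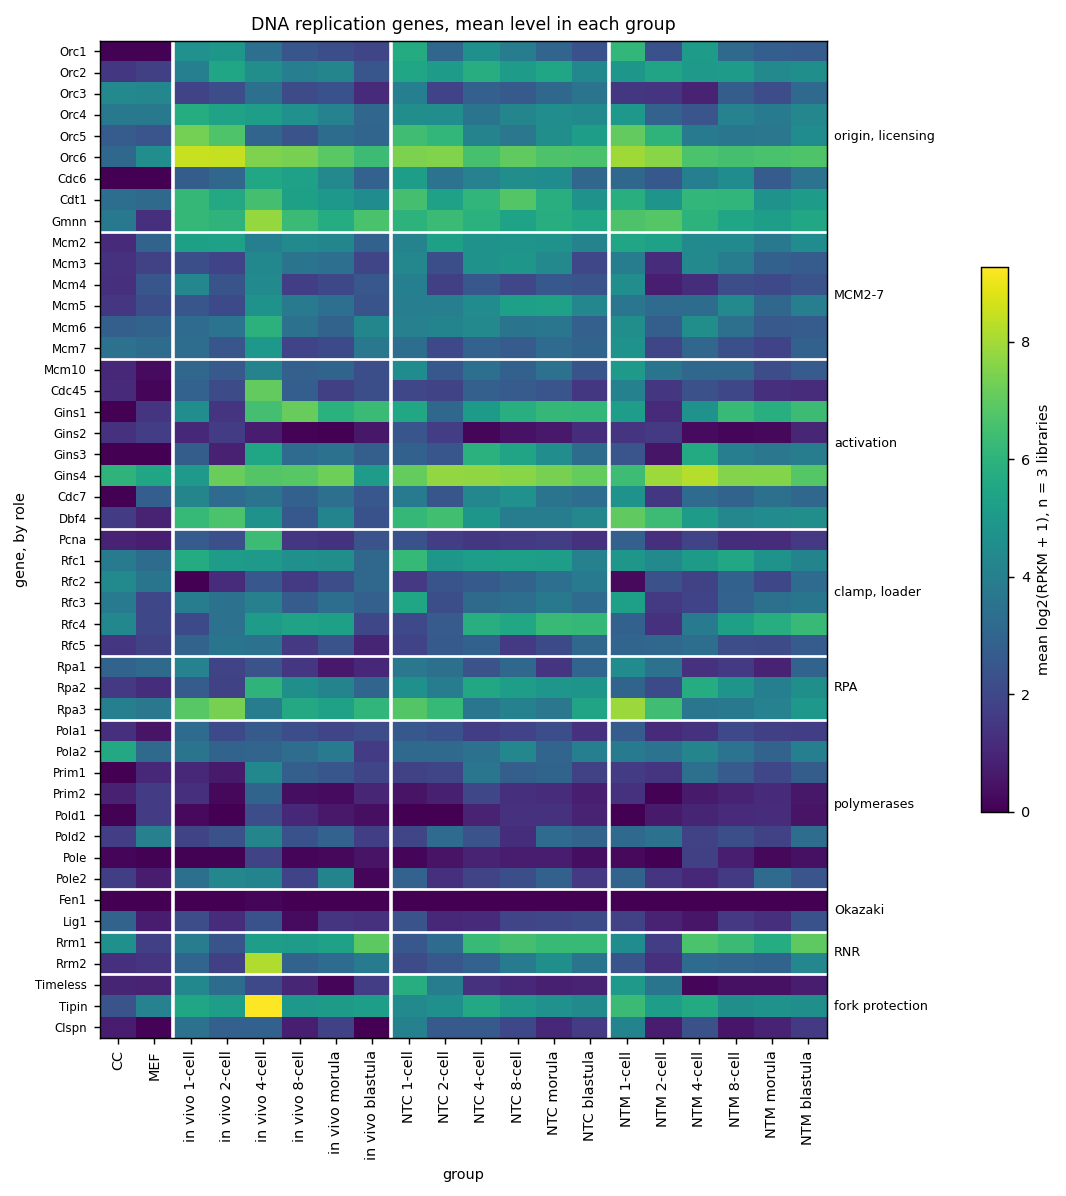
Mean log2(RPKM + 1) of 3 libraries for each of the 47 genes (rows, by role) in each of the 20 groups (columns, donor cells first). Among the embryo columns, the in vivo 4-cell column holds the highest mean of 14 of the 46 members that passed the filter. Rrm2, Cdc45, Pcna and Tipin are among the strongest contrasts with the columns beside it.

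Of the 9 origin licensing genes, 6 were higher in NTC 1-cell embryos than in CC, and 8 were higher and 1 lower in NTM 1-cell embryos than in MEF. Orc1, the ATPase subunit of ORC (chromosome 4, 108579423 to 108614833), was at 0.0308, 0.0364 and 0.0273 RPKM in CC and at 0.0273, 0.062 and 0 RPKM in MEF, from 0 to 8 reads per library. It reached 62.5, 52.9 and 41.4 RPKM in NTC 1-cell embryos and 79.3, 70.3 and 62.1 RPKM in NTM 1-cell embryos, so that no donor library came near an embryo library. Cdc6, which loads the helicase with Cdt1, had 1 to 5 reads in CC libraries and 0 to 2 in MEF libraries, against 35.6, 30.5 and 43.3 RPKM in NTC and 4.61, 15.3 and 6.24 RPKM in NTM 1-cell embryos. Dbf4, the activator of the Cdc7 kinase, was at 1.61, 1.58 and 0 RPKM in MEF and at 137, 110 and 140 RPKM in NTM 1-cell embryos. Geminin was at 0.113, 5.16 and 1.16 RPKM in MEF and at 101, 84.8 and 123 RPKM in the NTM embryos. In all 4 genes the embryos named were above their donor cells without overlap. Groups without overlap were found for 61.4% of members and 61.4% of all genes between NTC and CC, and for 64.4% of members and 64.8% of all genes between NTM and MEF. Orc3 was the exception in direction, at 17.6, 17.7 and 20.2 RPKM in MEF and 2.94, 3.76 and 0.209 RPKM in NTM 1-cell embryos, while Orc3, Orc4 and Cdt1 were not called between NTC and CC.

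Between NTC 1-cell embryos and CC, 24 of 44 members tested were called by limma (adjusted p under 0.05 and a log2 change of at least 1), 20 higher and 4 lower in the embryos, where 50% of all genes were called. Between NTM 1-cell embryos and MEF, 26 of 45 were called, 24 higher and 2 lower, against 55.2% of all genes. The share called was therefore close to that of all genes, while the direction was not: the members' median log2 difference was 1.90 against 0.16 over all genes for NTC, and 2.09 against -0.53 for NTM. Besides Orc1 (log2 difference 5.67 ± 0.27 (SE), adjusted p = 3.43e-05 for NTC; 6.11 ± 0.27, adjusted p = 7.44e-06 for NTM), these higher genes were led in NTC by Gins1 (5.57 ± 0.26), Cdc6 (5.19 ± 0.26), Timeless (4.84 ± 0.79) and Dbf4 (4.50 ± 1.00). In NTM they were led by Dbf4 (6.09 ± 0.44), Gmnn (5.39 ± 0.62), the helicase factor Mcm10 (4.68 ± 0.35) and Orc5 (4.60 ± 0.60). The 2 comparisons share no library. Of the genes called higher, 16 were called in both, which is 80% of the NTC list and 66.7% of the NTM list. Rfc2, a small subunit of the clamp loader, was the 1 member lower in both: it was at 22.8, 26.2 and 13.5 RPKM in CC and 8.97, 19 and 7.97 RPKM in MEF, but at 1.35, 3.22 and 1.57 RPKM in NTC 1-cell embryos and 0.213, 0.344 and 0.00961 RPKM in NTM 1-cell embryos. Pola2, Rfc4 and Rrm1 were also lower in NTC than in CC, and Orc3 was lower in NTM than in MEF. Cdt1 (log2 difference 2.67 ± 0.50) and Pcna (2.08 ± 0.51) were called higher in NTM, and of these Pcna (1.44 ± 0.23) in NTC too. Cdc45 was called higher in NTM (3.94 ± 0.29) and not in NTC, Mcm5 and Rrm2 in neither. Among members below 0.5 RPKM in 1 of the groups compared, 6 of 7 were called for NTC and 7 of 8 for NTM. They passed the filter through the group where they were high. For NTC they were Orc1, Cdc6, Gins1, Gins3, Cdc7, Prim1 and Prim2, of which Prim2 was not called. For NTM they were Orc1, Cdc6, Mcm10, Cdc45, Gins3, Rfc2, Clspn and Pold1, of which Pold1 was not called. Without NTC 1-cell replicate 2 or replicate 3, 15 members were called for NTC. MEF and CC did not differ by a called member (0 of 42 in limma, 4 at an unadjusted p under 0.05), where 6.29% of all genes were called. Cdc7, higher in MEF, came nearest, at 5.37, 9.22 and 3.75 RPKM in MEF and 0.0064, 0.0227 and 0.0152 RPKM in CC (adjusted p = 0.0561). It was below 0.5 RPKM in CC and was tested through its MEF level. Geminin, lower in MEF, was at 0.113, 5.16 and 1.16 RPKM in MEF and 29.1, 5.48 and 11.2 RPKM in CC (adjusted p = 0.188).

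**Figure D2:**
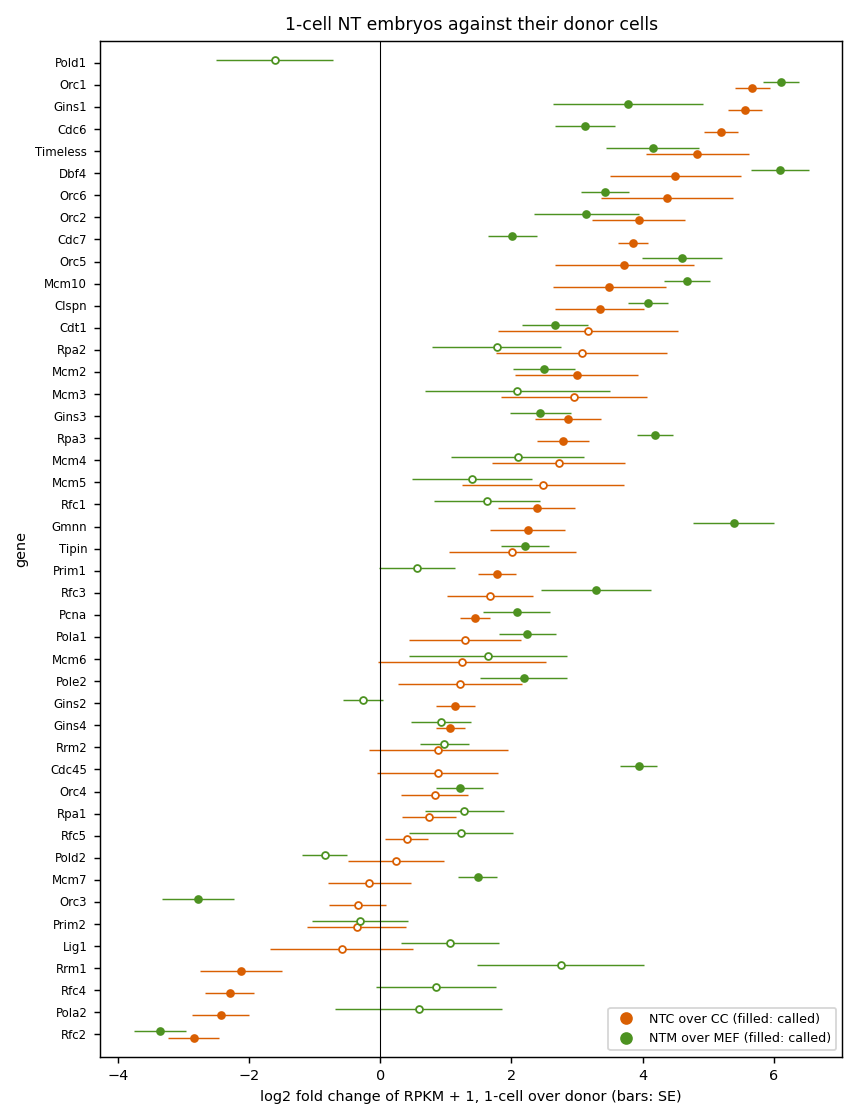
Log2 fold change of RPKM + 1 (x axis) of each member tested (y axis), NTC 1-cell embryos over CC and NTM 1-cell embryos over MEF, with bars for the SE of 3 against 3 libraries and filled points for called genes. Of the called genes, 20 of 24 in NTC and 24 of 26 in NTM lie to the right of 0.

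At the 1-cell stage, the 2 kinds of NT embryo differed from each other in 12 members, and from in vivo embryos in 1 or none; in 1 fit over all 20 groups, NTM against NTC had 3 and NTC against in vivo had 3. NTM against NTC had 12 of 44 members called, 7 higher and 5 lower, where 19.8% of all genes were called. Cdc45, which binds the helicase as it is switched on, was at 14.8, 15.3 and 17.3 RPKM in NTM and 2.54, 3.62 and 2.62 RPKM in NTC (log2 difference 2.10 ± 0.27, adjusted p = 0.00149). Rrm1, the large reductase subunit, was at 26, 22.8 and 17.3 RPKM in NTM and 2.23, 5.5 and 8.16 RPKM in NTC (1.98 ± 0.40, adjusted p = 0.00891). Tipin, the partner of Timeless, was at 71.6, 67.3 and 102 RPKM in NTM and 27.5, 15.3 and 19.4 RPKM in NTC (1.92 ± 0.27, adjusted p = 0.00203). Mcm2, Mcm7, Pold2 and Rpa3 were higher in NTM as well, by 1.08 to 1.41 on the log2 scale. Orc3 (-2.50 ± 0.51), Cdc6 (-2.09 ± 0.39), Rpa2 (-1.66 ± 0.34), Rfc2 (-1.32 ± 0.38) and Rfc1 (-1.31 ± 0.28) were lower in NTM, of which Rfc2 was below 0.5 RPKM in NTM and was tested through its NTC level. For Orc3 the libraries were at 2.94, 3.76 and 0.209 RPKM in NTM and 11.9, 15 and 19 RPKM in NTC. Without NTC 1-cell replicate 3 the count was 7. Against in vivo 1-cell embryos, NTC had 1 of 44 members called, the GINS subunit Gins4, at 111, 159 and 140 RPKM against 22, 28.5 and 47.3 RPKM (2.09 ± 0.36, adjusted p = 0.0446; 1.16% of all genes called). NTM had 0 of 43 in limma, with 10 at an unadjusted p under 0.05 and 1.28% of all genes called. In vivo 1-cell replicate 1 was low in several members, with Cdc6 at 0.183 RPKM against 12.4 and 18.2 RPKM in the other in vivo embryos and Mcm5 at 0.028 against 13.5 and 10.7 RPKM. Without it, 10 members were called for NTC and 2 for NTM, and without in vivo 1-cell replicate 2 or any 1 of the NTC libraries none was called for NTC.

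From the 1-cell to the 2-cell stage, members were called lower in both NT types and none was called in vivo. In NTC 12 of 44 members were called, all lower (13.5% of all genes called), and in NTM 11 of 44, all lower (9.4% of all genes called). In vivo 0 of 44 were called in limma, with 5 at an unadjusted p under 0.05 and 0% of all genes called. The difference between these changes was not tested. Orc1 fell in NTC from 62.5, 52.9 and 41.4 to 5.72, 6.61 and 9.94 RPKM (log2 change -2.67 ± 0.31, adjusted p = 0.00136). In NTM it fell from 79.3, 70.3 and 62.1 to 10.3, 10.5 and 0.0232 RPKM (-3.80 ± 0.87, adjusted p = 0.0299). In vivo Orc1 stood at 8.09, 47.9 and 37.4 RPKM and then at 18.7, 34.3 and 39.2 RPKM. The in vivo stages thus overlapped for Orc1, while those of both NT types did not. Stages without overlap were found for 43.2% of members and 35.9% of all genes in NTC. These shares were 59.1% and 33% in NTM, and 20.5% and 12.2% in vivo. The clamp loader subunit Rfc3 fell in NTC from 47.8, 38.3 and 42.7 to 2.34, 5.12 and 4.08 RPKM (-3.22 ± 0.33, adjusted p = 0.000917) and in NTM from 27.9, 48.6 and 37.1 to 3.53, 2.56 and 0.648 RPKM (-3.67 ± 0.54, adjusted p = 0.00543). Gins1 fell by 2.49 ± 0.47 in NTC and by 4.06 ± 0.65 in NTM on the log2 scale. Mcm4, a core helicase subunit, fell by 2.26 ± 0.55 and 3.79 ± 0.57. The Cdc7 kinase and the helicase subunits Mcm3 and Mcm7 were the others called lower in both. The 7 shared genes are 58.3% of the NTC list and 63.6% of the NTM list, from comparisons without a common library. Orc3 and Cdc6 were called lower in NTC, where Cdc6 went from 35.6, 30.5 and 43.3 to 19.8, 4.21 and 12.9 RPKM. Clspn, which couples the fork to the checkpoint, was called lower in NTM, as were Rrm1 and Cdc45. Mcm5, Cdt1, Gmnn, Pcna and Rrm2 were called in neither; geminin was at 68.6, 61.3 and 57.7 RPKM in NTC 1-cell and 83, 60.4 and 100 RPKM in NTC 2-cell embryos.

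The members' median log2 change was -0.33 in NTC against -0.17 over all genes, -1.16 in NTM against -0.22 and -0.40 in vivo against 0.02. With libraries scaled by the median ratio of their genes, NTC had 2 members higher (Mcm2 and Gins4) and 8 lower, and NTM 1 higher (Gins4) and 8 lower. The members' medians were then 0.04 in NTC, -0.69 in NTM and -0.30 in vivo, against 0.13, 0.17 and 0.14 over all genes. The counts rested on single embryos: without NTC 1-cell replicate 1, 2 or 3 they were 5, 2 and 3. Without NTM 1-cell replicate 1, 2 or 3 they were 1, 2 and 0, and without NTM 2-cell replicate 1 the count was 17. NTM 2-cell replicate 3 had a member median of 1.20 on the log2(RPKM + 1) scale, against 3.37 and 2.50 in the other NTM 2-cell embryos.

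**Figure D3:**
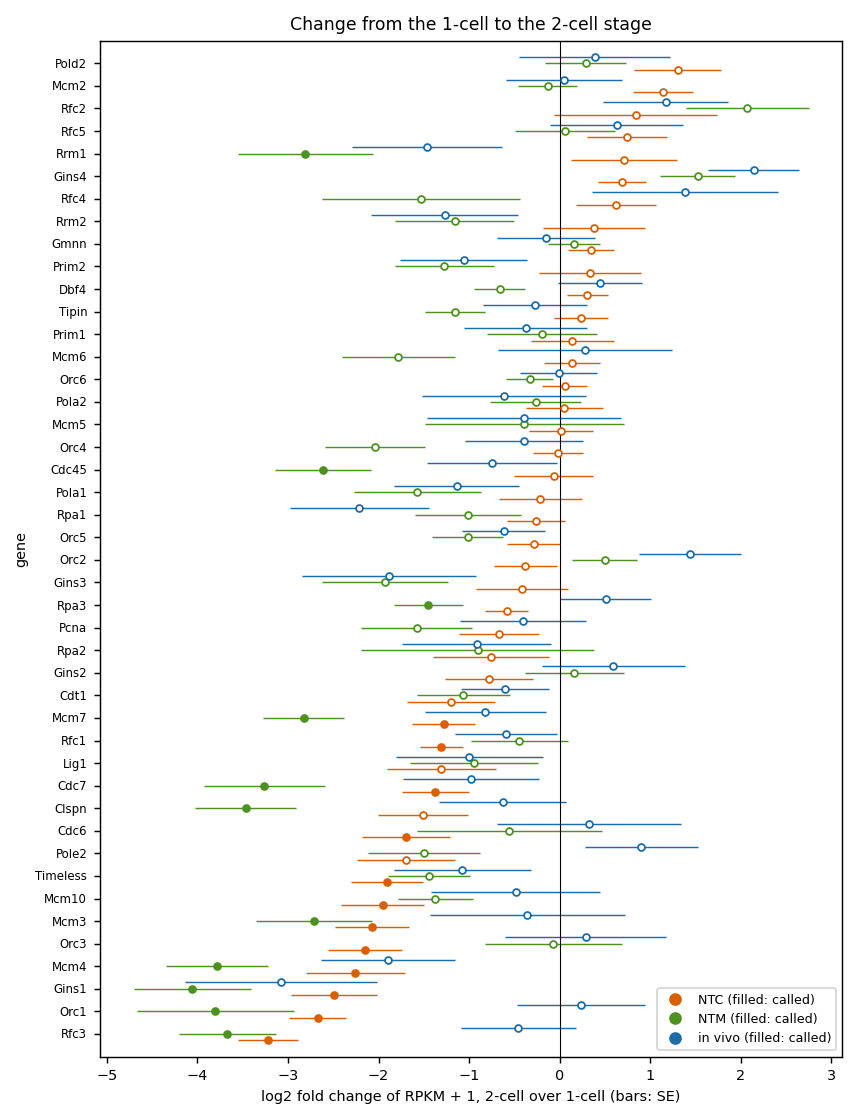
Log2 fold change of RPKM + 1 from the 1-cell to the 2-cell stage (x axis) for each member tested (y axis) in NTC, NTM and in vivo embryos, with bars for the SE of 3 against 3 libraries and filled points for called genes. The filled points are all to the left of 0, 12 in NTC and 11 in NTM, and no in vivo point is filled.

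From the 2-cell to the 4-cell stage in vivo, 20 of the replication genes rose. Of 46 members tested, 24 were called, 20 higher and 4 lower, where 52.2% of all genes were called; the share of members called, 52.2%, was the same, and the members' median log2 change was 1.28 against 0.36 over all genes. With median-ratio scaling the split was 17 higher and 8 lower, and the median over all genes went from 0.36 to -0.21. Rrm2, the small subunit of ribonucleotide reductase (chromosome 12, 24708241 to 24714146), was at 3.28, 0.442 and 5.46 RPKM at the 2-cell stage and 212, 390 and 287 RPKM at the 4-cell stage (log2 change 6.40 ± 0.60, adjusted p = 0.000152). Rrm1 rose with it, from 11.4, 0.846 and 5.65 to 23.4, 50.1 and 38.2 RPKM (2.78 ± 0.72, adjusted p = 0.0144). Cdc45 (chromosome 16, 18780447 to 18811987) went from 2.6, 2.62 and 5.78 to 149, 137 and 107 RPKM (4.88 ± 0.40, adjusted p = 8.86e-05). Each of these 3 genes was higher in every 4-cell than in every 2-cell embryo. Gins1 and Gins3, which join Cdc45 at the helicase, rose by 5.07 ± 1.10 and 4.67 ± 0.47. The sliding clamp gene Pcna (chromosome 2, 132249162 to 132253314) went from 3.13, 4.86 and 3.73 to 87.9, 86.7 and 71.2 RPKM (4.09 ± 0.34, adjusted p = 9.47e-05). Tipin (chromosome 9, 64281581 to 64305424) went from 22.4, 31.9 and 59.9 to 670, 535 and 654 RPKM (4.10 ± 0.41, adjusted p = 0.000192). Here too the lowest 4-cell embryo was above the highest 2-cell embryo. Groups without overlap were found at this step for 65.2% of members and 61.4% of all genes.

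The helicase itself rose in 5 of its 6 subunits, Mcm3 to Mcm7, by 2.01 to 2.63 on the log2 scale. Mcm6 went from 7.4, 22.6 and 6.73 to 34.5, 73.5 and 89.8 RPKM (2.43 ± 0.58, adjusted p = 0.0103). Mcm5 went from 8.7, 1.49 and 2.19 to 14.1, 44.1 and 25.9 RPKM (2.63 ± 0.65, adjusted p = 0.0117). Mcm2, at 29, 21.3 and 93.2 and then 9.89, 23.4 and 14.4 RPKM, was not called. With median-ratio scaling Mcm5, Mcm6 and Mcm7 were still called higher, Mcm3 and Mcm4 were not called, and Mcm2 was called lower. Of the polymerase and primase genes, 5 of 8 rose: the primase subunits Prim1 and Prim2, Pold1 and Pold2 of polymerase delta and Pole. For Prim2, Pold1 and Pole the 2-cell mean was below 0.5 RPKM, so they were tested through their 4-cell level. Of the single-stranded DNA binding complex RPA, Rpa2 rose by 4.26 ± 0.44, and Rpa3 fell from 84, 201 and 255 to 13.2, 12.1 and 18.1 RPKM (-3.43 ± 0.48, adjusted p = 0.000893). The licensing genes were divided. Cdc6 rose from 11, 4.16 and 8.66 to 33.4, 50.4 and 53 RPKM (2.44 ± 0.44, adjusted p = 0.00291) and geminin (chromosome 13, 24751845 to 24761923) from 40.8, 61.7 and 108 to 230, 195 and 245 RPKM (1.77 ± 0.41, adjusted p = 0.00898). Orc5 fell from 135, 126 and 67.8 to 9.67, 6.48 and 5.71 RPKM (-3.70 ± 0.41, adjusted p = 0.00031). Orc1 fell by 1.54 ± 0.43, and Dbf4 by 1.86 ± 0.36. Cdt1 was not called.

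The promoters of these genes were read from RefSeq (GRCm38.p6), which gave 38 of the 47 members a sequence from 250 bases before to 50 after the gene start. E2F transcription factors drive many S-phase genes. Any of 3 E2F words (TTTCGCGC, TTTGGCGC, TTTCCCGC, on either strand) was present in 15 of 38 member promoters (39.5%) and in 2.12% of 27025 promoters. The CCAAT box (CCAAT, either strand) was in 24 of 38 (63.2%), against 41.1% of all, and the word TATAAA in 7.89% against 15.7%. Among members with a promoter, 7 of the 14 that rose from the 2-cell to the 4-cell stage in vivo, 1 of the 4 that fell and 7 of the 19 not called held an E2F word, and 12, 2 and 10 of them held a CCAAT box. A match describes the letters only. The 160 bases before the start are printed for Mcm5 and Mcm6, which rose, for Rrm2, which rose most, and for Pola1, which was not called (3.46, 2.37 and 4.14 RPKM at the 2-cell and 4.79, 3.77 and 7.77 RPKM at the 4-cell stage). Capitals mark E2F words and CCAAT boxes. The positions are chr8:75109349-75109508 (plus strand) for Mcm5, chr1:128359706-128359865 (minus) for Mcm6, chr12:24708081-24708240 (plus) for Rrm2 and chrX:93632156-93632315 (minus) for Pola1. The Rrm2 stretch ends 13 bases before the RefSeq start.
Mcm5: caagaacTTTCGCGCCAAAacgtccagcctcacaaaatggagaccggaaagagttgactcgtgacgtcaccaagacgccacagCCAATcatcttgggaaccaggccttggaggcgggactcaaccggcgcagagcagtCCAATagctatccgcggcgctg
Mcm6: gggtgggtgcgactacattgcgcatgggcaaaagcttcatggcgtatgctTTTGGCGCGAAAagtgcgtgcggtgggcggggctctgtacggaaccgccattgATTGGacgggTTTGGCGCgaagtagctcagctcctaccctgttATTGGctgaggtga
Rrm2: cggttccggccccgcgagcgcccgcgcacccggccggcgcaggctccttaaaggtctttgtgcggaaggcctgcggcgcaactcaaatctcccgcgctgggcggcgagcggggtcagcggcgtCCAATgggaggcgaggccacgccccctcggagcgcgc
Pola1: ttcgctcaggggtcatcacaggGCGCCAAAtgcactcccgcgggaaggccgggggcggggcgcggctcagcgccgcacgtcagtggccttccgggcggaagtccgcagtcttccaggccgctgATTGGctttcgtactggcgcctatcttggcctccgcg
Mcm5 and Mcm6 each carry overlapping E2F words on opposite strands and 2 CCAAT boxes. Pola1 has 1 E2F word and 1 CCAAT box, and the Rrm2 stretch shown holds a CCAAT box and none of the E2F words.

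In NT embryos fewer members than in vivo were called between the 2-cell and the 4-cell stage. NTC had 11 of 46, 7 higher and 4 lower, with 36.6% of all genes called, and NTM had 6 of 45, 4 higher and 2 lower, with 26.4% of all genes called. With median-ratio scaling the splits were 5 higher and 7 lower in NTC and 4 higher and 5 lower in NTM, and in 1 fit over all 20 groups 17 members were called in NTM. The mitochondrial share rose over this step from 8.77 to 19.0% up to 31.6 to 34.7% in NTC and from 9.86 to 22.9% up to 29.6 to 40.4% in NTM, and its part in the result was not tested. Gins3 rose in both, from 5.05, 3.75 and 4.86 to 53.3, 67.9 and 60.2 RPKM in NTC (3.47 ± 0.39, adjusted p = 0.000406) and from 1.76, 0.0602 and 0 to 21.3, 89.2 and 65.5 RPKM in NTM (5.16 ± 0.77, adjusted p = 0.00231). Rrm1 rose from 10.7, 3.5 and 15.1 to 66.1, 81.6 and 79.4 RPKM in NTC (3.02 ± 0.52, adjusted p = 0.00272) and from 3.27, 6.84 and 0.0202 to 50.8, 198 and 97.6 RPKM in NTM (4.96 ± 0.89, adjusted p = 0.0047). Mcm3 and Gins1 also rose in both, and Rfc4, Cdc7 and Prim1 in NTC. Timeless fell in both, in NTM from 10.9, 18.1 and 6.62 to 0.047, 0 and 0.257 RPKM, where its 4-cell mean was below 0.5 RPKM and it was tested through its 2-cell level. Rpa3 fell in both, and Orc5 and Dbf4 in NTC. The NT and in vivo comparisons share no library here. Of the 20 genes higher in vivo, 5 were higher in NTC (25% of the in vivo and 71.4% of the NTC list) and 4 in NTM (20% and 100%). Dbf4, Orc5 and Rpa3 were lower in both in vivo and NTC embryos.

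Rrm2, Cdc45 and Pcna, which rose in vivo, were not called in either NT type. Rrm2 was at 11, 1.84 and 4.5 and then 5.18, 7.49 and 7.14 RPKM in NTC (log2 change 0.40 ± 0.59, adjusted p = 0.606), and at 1.16, 3.88 and 0.233 and then 5.35, 5.58 and 19.6 RPKM in NTM (2.02 ± 0.79, adjusted p = 0.095). Tested directly as an interaction, the change from the 2-cell to the 4-cell stage differed from that in vivo for 7 of 46 members in NTC (14.3% of all genes) and 5 of 46 in NTM (9.91% of all genes). Against the in vivo change, that of Rrm2 was lower by 6.00 ± 0.87 in NTC and by 4.38 ± 1.02 in NTM on the log2 scale. For Cdc45 it was lower by 3.92 ± 0.61 and 4.04 ± 0.90, for Pcna by 4.24 ± 0.56 and 3.46 ± 0.63, for Tipin by 3.14 ± 0.54 and 3.58 ± 0.66, and for geminin by 2.19 ± 0.56 and 2.61 ± 0.62. In NTC Pold2 was lower too, and Orc1 was higher, by 3.16 ± 0.74. With median-ratio scaling 2 members were higher and 5 lower for NTC, 1 higher and 4 lower for NTM. Without replicate 2 of each group 4 members were called for NTC, and without replicate 1 or replicate 2 none was called for NTM.

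**Figure D4:**
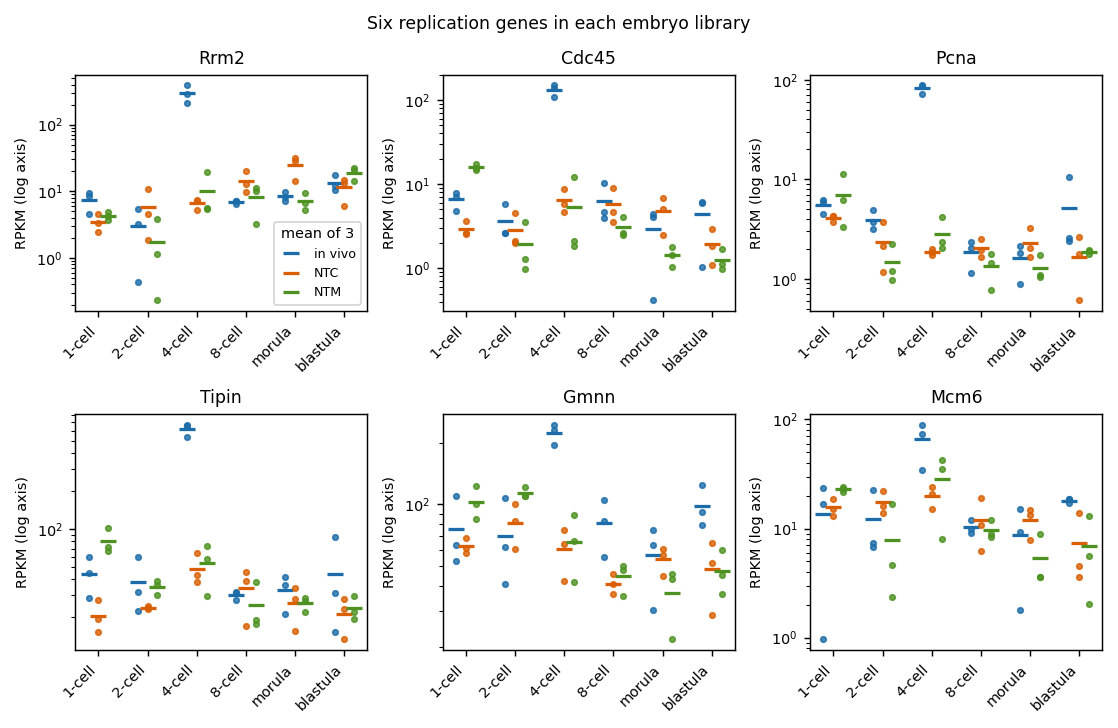
RPKM in each embryo library (y axis) for Rrm2, Cdc45, Pcna, Tipin, Gmnn and Mcm6 at the 6 stages (x axis), with a point per library and a dash for the mean of 3, by embryo type. For Rrm2 the in vivo 4-cell embryos sit at 212 to 390 RPKM while the NT 4-cell embryos sit at 5.18 to 19.6 RPKM.

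Compared directly at the 4-cell stage, 15 of 45 members differed between NTC and in vivo embryos, 2 higher and 13 lower in NTC, with 27.8% of all genes called. Between NTM and in vivo embryos 11 of 45 differed, 1 higher and 10 lower, with 21.1% of all genes called. The members' median log2 difference was -0.66 against -0.39 over all genes for NTC and -1.07 against -0.69 for NTM. Both comparisons use the same 3 in vivo embryos. Rrm2 was at 5.18, 7.49 and 7.14 RPKM in NTC and 5.35, 5.58 and 19.6 RPKM in NTM, against 212, 390 and 287 RPKM in vivo (log2 difference -5.26 ± 0.32, adjusted p = 1.3e-05 for NTC; -4.92 ± 0.55, adjusted p = 0.00113 for NTM). Pcna was at 1.75, 1.86 and 1.99 RPKM in NTC and 2.04, 4.14 and 2.33 RPKM in NTM, against 87.9, 86.7 and 71.2 RPKM in vivo (-4.85 ± 0.32, adjusted p = 1.94e-05; -4.47 ± 0.44, adjusted p = 0.000697). Cdc45 was at 5.82, 8.81 and 4.72 RPKM in NTC and 2.09, 1.86 and 12.2 RPKM in NTM, against 149, 137 and 107 RPKM in vivo (-4.17 ± 0.33, adjusted p = 5.37e-05; -4.74 ± 0.64, adjusted p = 0.00241). In all 3 genes the NT embryos lay far under the in vivo embryos. Tipin was at 43.6, 64.6 and 37.9 RPKM and at 57.9, 73.6 and 29.8 RPKM, against 670, 535 and 654 RPKM (-3.67 ± 0.26, adjusted p = 2.94e-05; -3.59 ± 0.38, adjusted p = 0.000956). Geminin was at 75.2, 42.4 and 64.2 RPKM and at 89.1, 66.5 and 41.6 RPKM, against 230, 195 and 245 RPKM (-1.90 ± 0.28, adjusted p = 0.0013; -1.81 ± 0.36, adjusted p = 0.012). In these 5 genes no NT embryo reached the lowest in vivo embryo. Groups without overlap were found for 53.3% of members and 43.9% of all genes in NTC, and for 51.1% and 41.1% in NTM.

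Pole2, the second subunit of polymerase epsilon, and Mcm4 were the other genes lower in both NT types. Mcm6, Mcm7, Gins1, Cdc6, Pold2 and Orc4 were called lower in the NTC comparison, and Orc3, Prim2 and Timeless (below 0.5 RPKM in NTM) in the NTM comparison; NTM against NTC at this stage had 0 of 45 called in limma, 0 at an unadjusted p under 0.05 and 0% of all genes. Rrm1 was called higher in NTC, at 66.1, 81.6 and 79.4 RPKM against 23.4, 50.1 and 38.2 RPKM in vivo (1.06 ± 0.33, adjusted p = 0.042), so that the reductase subunits differed from in vivo embryos in opposite directions. Orc2 was higher in NTC as well (1.20 ± 0.28) and Gins4 in NTM (1.43 ± 0.28). Orc1, Cdt1 and Mcm5 were not called in either. With median-ratio scaling the NTC split was 4 higher and 13 lower. Without in vivo 4-cell replicate 2 or replicate 3, 9 and 8 members were called for NTC, and without in vivo 4-cell replicate 1, 2 or 3 the counts for NTM were 7, 5 and 5. The higher mitochondrial share of the NT libraries, given at the start, moves with this comparison, and its part in the result was not tested.

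**Figure D5:**
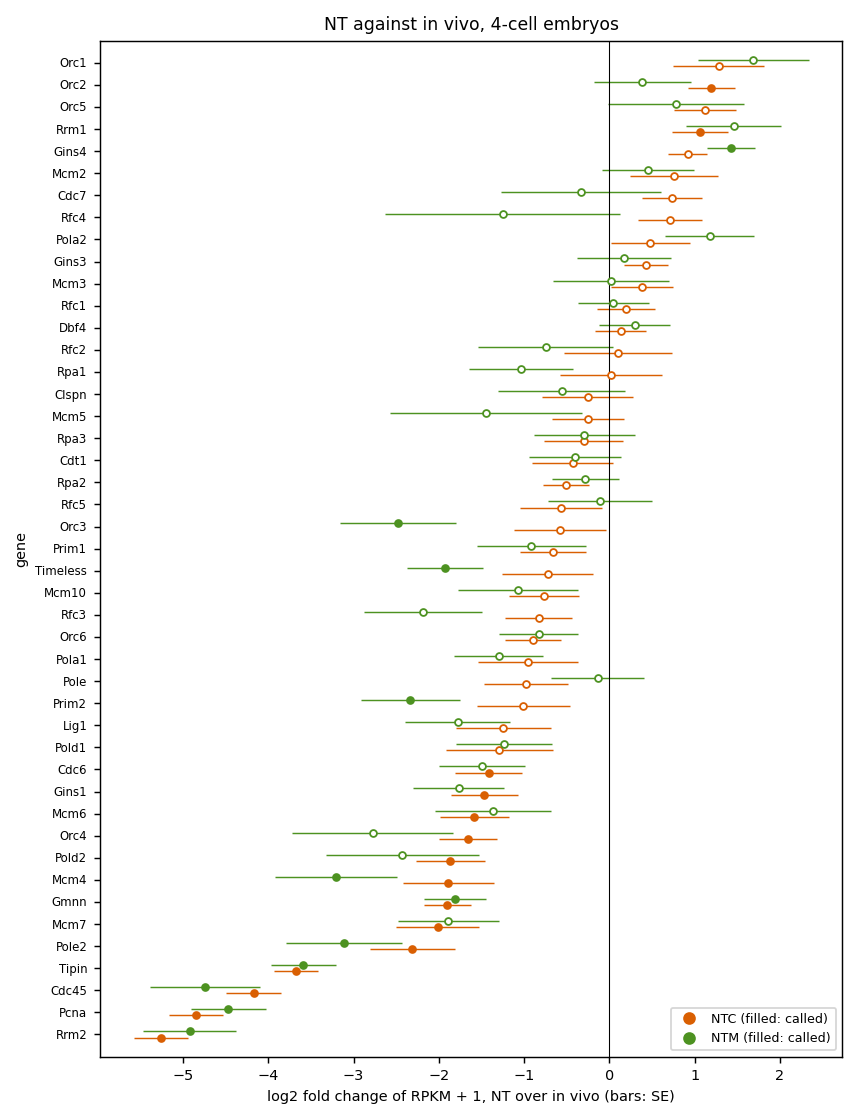
Log2 fold change of RPKM + 1 at the 4-cell stage (x axis), NTC and NTM embryos over in vivo embryos, for each of the 45 members tested (y axis), with bars for the SE of 3 against 3 libraries and filled points for called genes. Rrm2, Pcna, Cdc45 and Tipin lie below -3.5 in both NT types.

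From the 4-cell to the 8-cell stage in vivo, 22 members fell. Of 45 members 23 were called, 22 lower and 1 higher, with 43.7% of all genes called. The members' median log2 change was -1.24, against -1.05 over all genes. With median-ratio scaling the split was 11 lower and 3 higher, and both medians were -0.61. Over the same step the mitochondrial share of reads in vivo went from 5.68 to 8.87% up to 32.1 to 45.05%, and the genes above 0 from 13576 to 13932 down to 9913 to 10304. Their part in the result was not tested. Rrm2 fell to 7.04, 7.09 and 6.34 RPKM (-5.21 ± 0.31, adjusted p = 2.79e-05). Pcna fell to 2.04, 2.33 and 1.15 RPKM (-4.89 ± 0.34, adjusted p = 5.35e-05), Tipin to 32.1, 31.2 and 27.3 RPKM (-4.31 ± 0.21, adjusted p = 1.58e-05) and Cdc45 to 10.3, 4.71 and 3.98 RPKM (-4.26 ± 0.39, adjusted p = 0.000165). Mcm7 fell by 3.10 ± 0.74. Geminin and Cdt1 fell by 1.49 ± 0.28 and 1.24 ± 0.37, while Orc1, Cdc6 and Mcm5 were not called. Prim2, Pole and Lig1, also called lower, had 8-cell means below 0.5 RPKM and were tested through their 4-cell level. Rpa3 was the 1 gene that rose, to 54, 33.8 and 56 RPKM (1.65 ± 0.34, adjusted p = 0.00631). Without in vivo 4-cell replicate 1, 2 or 3, the counts were 15, 11 and 12. In NT embryos no member was called at this step, 0 of 45 in NTC (0 at an unadjusted p under 0.05, 0.0564% of all genes called) and 0 of 44 in NTM (3 at an unadjusted p under 0.05, 0.363% of all genes called). As an interaction, the change differed from that in vivo for 6 of 45 members in NTC (19.5% of all genes) and 8 of 45 in NTM (18.7% of all genes). All of these were more positive in NT embryos. The median difference over all genes was positive too, at 0.88 for each NT type, against 1.06 (NTC) and 1.15 (NTM) for the members. Rrm2 (6.17 ± 0.54 and 5.01 ± 0.77), Pcna (4.96 ± 0.55 and 4.19 ± 0.61), Cdc45 (4.07 ± 0.64 and 3.97 ± 0.83), Tipin (3.73 ± 0.52 and 3.25 ± 0.56) and Lig1 (2.91 ± 0.75 and 3.05 ± 0.81) were called in both. Cdt1 was the other in NTC, and Mcm4, Orc3 and Prim2 the others in NTM. Lig1 and, in the NTM interaction, Prim2 had an in vivo 8-cell mean below 0.5 RPKM and passed the filter through groups where they were higher. Without replicate 1, 2 or 3 of each group the NTM count was 5, 3 and 5. The in vivo 4-cell libraries enter both this interaction and the one for the step before, which are therefore not independent.

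A comparison that leaves the 4-cell stage out, chosen after the data were seen, set 8-cell against 2-cell embryos of each type. It called 14 of 44 members in vivo (6 higher, 8 lower; 41.6% of all genes called), 10 of 46 in NTC (6 higher, 4 lower; 35.1%) and 12 of 45 in NTM (5 higher, 7 lower; 39.8%). These comparisons share no library. Gins1, Gins3 and Rrm1 were higher at the 8-cell stage in all 3 types, and Dbf4, Orc5, Rpa3 and Timeless were lower in all 3. In NTM the 8-cell mean of Timeless was below 0.5 RPKM, so that it was tested there through its 2-cell level. Gins1 went in vivo from 18.3, 0.0475 and 0 RPKM at the 2-cell stage to 116, 164 and 139 RPKM at the 8-cell stage, in NTC from 15.6, 3.25 and 7.6 to 65.7, 64.3 and 43.8 RPKM and in NTM from 0.707, 4.27 and 0.213 to 101, 85.8 and 51.1 RPKM. At the 8-cell stage itself, limma called 0 of 44 members for NTC against in vivo (11 at an unadjusted p under 0.05, 1.46% of all genes called) and 0 of 45 for NTM against in vivo (8, 2.02%).

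At the other stages few or no replication genes were called in limma. At the 2-cell stage 0 of 44 members were called for NTC against in vivo (7 at an unadjusted p under 0.05, 0.152% of all genes called), 0 of 43 for NTM (5, 0.141%) and 0 of 44 for NTM against NTC (4, 0%). For NTM against NTC at the 8-cell stage, 0 of 45 were called (3, 0.0507%), in the morula 0 of 44 (14, 0%) and in the blastula 0 of 45 (0, 0%). In the morula 0 of 43 were called for NTC against in vivo (5, 0.0321%) and 0 of 43 for NTM (2, 0.168%). In the blastula 0 of 45 were called for NTC (6, 9.46%) and 0 of 44 for NTM (7, 0.746%), where without in vivo blastula replicate 1 the counts were 3 and 1, without in vivo blastula replicate 2 that for NTC was 1, and without NT blastula replicate 3 they were 1 and 2. From the 8-cell stage to the morula none was called, 0 of 43 in vivo (1 at an unadjusted p under 0.05, 0.0116% of all genes called), 0 of 46 in NTC (5, 0%) and 0 of 44 in NTM (5, 0%). From the morula to the blastula 1 member was called in each type, with 0.801% of all genes called in vivo, 7.16% in NTC and 4.22% in NTM. In vivo Pole2 fell from 17.2, 16.1 and 18.3 to 0.113, 0.276 and 0 RPKM (-4.02 ± 0.74, adjusted p = 0.0483), and it was tested through its morula level, since its blastula mean was below 0.5 RPKM. In NTC Rpa3 rose from 11.3, 16.1 and 8.94 to 41.4, 46.6 and 38.6 RPKM (1.75 ± 0.34, adjusted p = 0.019). In NTM Rpa1, the large RPA subunit, rose from 1.11, 0.794 and 0.767 to 9.89, 5.59 and 5.24 RPKM (2.02 ± 0.51, adjusted p = 0.0496). Each of the 3 counts of 1 went to 0 or 2 when libraries were left out in turn: to 0 without 5 of the 6 in vivo libraries, 4 of the 6 NTC libraries and 5 of the 6 NTM libraries, and to 2 without blastula replicate 1 in vivo or replicate 3 in NTC or NTM. As an interaction, 0 of 45 members changed differently from in vivo in NTC (6 at an unadjusted p under 0.05, 0.236% of all genes) and 0 of 44 in NTM (6, 0.647%).

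Other genes of the pathway, listed separately, were read beside the members. Of 26 accessory replication factors tested in vivo from the 2-cell to the 4-cell stage, 9 rose and 6 fell, where 52.2% of all genes were called. Of 8 nucleotide supply genes, 4 rose and 1 fell: thymidylate synthase Tyms went from a mean of 0.374 to 42.0 RPKM and thymidine kinase Tk1 from 4.60 to 57.2 RPKM, while Rrm2b, the alternative small reductase subunit, fell from 74.6 to 12.2 RPKM (log2 change -2.49 ± 0.37, adjusted p = 0.00114) as Rrm2 rose. Of 7 chromatin assembly genes, 3 rose and 2 fell. Of 9 E2F and pocket protein genes tested, 1 rose (E2f6) and 5 fell, among them E2f5 from 1594 to 13.7 RPKM. Cdkn1a, an inhibitor of the cyclin-dependent kinases, went from 0.694 to 47.8 RPKM (4.96 ± 0.43, adjusted p = 0.000121). Against in vivo 4-cell embryos, 4 of 8 nucleotide supply genes were lower in each NT type, and 6 of 26 accessory factors were lower in each, where 27.8% (NTC) and 21.1% (NTM) of all genes were called. Top1, a topoisomerase that relaxes DNA ahead of the fork, was higher in NTC, at a mean of 46.8 against 17.9 RPKM (1.35 ± 0.29, adjusted p = 0.00924). Tyms was at a mean of 8.33 RPKM in NTC and 5.68 RPKM in NTM (-2.18 ± 0.33, adjusted p = 0.00167; -2.69 ± 0.46, adjusted p = 0.0063). Supt16, a subunit of the histone chaperone FACT, was at 0.436 and 0.689 RPKM against 26.6 RPKM in vivo, and Top2a, the topoisomerase that unlinks the copied strands, at 6.58 and 7.10 RPKM against 41.9 RPKM. In the 1-cell embryos against their donor cells, 4 of 6 kinase inhibitors fell below the CC level in NTC embryos and 1 rose, Cdkn1c (2.61 against 0.101 RPKM, log2 difference 1.71 ± 0.25, adjusted p = 0.00224), while 3 of 6 fell below the MEF level in NTM embryos, where 50% and 55.2% of all genes were called; Cdkn1a was at a mean of 33.8 RPKM in CC and 1.44 RPKM in NTC, and at 24.1 RPKM in MEF and 0.0389 RPKM in NTM. Of the accessory factors, 10 of 24 were higher and 2 lower in NTC, 11 of 23 higher and 4 lower in NTM. Rrm2b was higher in both, at 53.0 against 0.723 RPKM and 124 against 0.741 RPKM. Some of the genes named here had a group mean below 0.5 RPKM and were tested through the other group. They were Tyms and E2f6 at the in vivo 2-cell stage, and Supt16 in NTC 4-cell embryos. Cdkn1c in CC and Cdkn1a in NTM 1-cell embryos were the others.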

How the data were processed

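RNA from single embryos and donor cells was amplified by poly(A) tailing and PCR without molecular identifiers and sequenced on an Illumina instrument, so that counts are reads and not molecules. The authors mapped the reads to the mouse genome, counted them per gene and deposited the RPKM table used here. Their methods name TopHat and HTSeq, while the submitters' processing notes name mm8 and Bowtie 0.12.2, so the build is unsettled. Against the exon lengths of GENCODE M21, 21874 of 27056 genes gave whole reads within 0.02, 36 members among them, from which depth (5294167 to 47830132 reads on genes) was taken.

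Groups followed the labels. RPKM values were tested on the log2(RPKM + 1) scale with limma 3.58.1 (limma-trend, R 4.3.3) on genes with a mean of at least 0.5 RPKM over the libraries compared, with Benjamini-Hochberg adjustment over all genes tested. A gene was called at an adjusted p under 0.05 and a log2 change of at least 1. Fold changes on this scale understate those of low genes. The procedure was tested on simulated data. Each gene's p-value sets the difference between groups against the spread between the 3 libraries of a group, which limma draws towards a trend over all genes tested. In the 36 comparisons and 6 interactions, named genes were up to 5 called members per direction with the largest change, plus Mcm5, Orc1, Cdc6, Cdt1, Gmnn, Pcna, Rrm2 and Cdc45, and the 5 widest and 5 narrowest ranges; others named beside a count were chosen after their values were seen. The members and lists were chosen with earlier results of these data known. Alternatives were a pseudocount of 0.1, no filter, median-ratio scaling, 1 fit over all 20 groups, a replicate block and leaving out each library. In the interactions 1 replicate of each group was left out together. Near copies were searched with BLASTN 2.17.0 (at least 300 bases at 95% identity).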

Additional observations from a re-analysis of the deposited data

Results flagged for a closer look

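The change between consecutive stages differed from that in vivo, by limma's test of the difference itself, for the members given here. All values are differences of 2 log2 changes, NT minus in vivo, each over 3 libraries per group and stage.

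From the 2-cell to the 4-cell stage, the NTC change was smaller than that in vivo for Rrm2 (-6.00), Pcna (-4.24), Cdc45 (-3.92), Tipin (-3.14), Pold2 (-2.81) and Gmnn (-2.19), and larger for Orc1 (3.16). The NTM change was smaller for Rrm2 (-4.38), Cdc45 (-4.04), Tipin (-3.58), Pcna (-3.46) and Gmnn (-2.61).

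From the 4-cell to the 8-cell stage, the NTC change was more positive for Rrm2 (6.17), Pcna (4.96), Cdc45 (4.07), Tipin (3.73), Lig1 (2.91) and Cdt1 (1.94). The NTM change was more positive for Rrm2 (5.01), Pcna (4.19), Cdc45 (3.97), Mcm4 (3.69), Tipin (3.25), Orc3 (3.11), Lig1 (3.05) and Prim2 (2.94). The 3 in vivo 4-cell libraries enter every one of these values. Over all genes the median difference was -0.41 (NTC) and -0.39 (NTM) for the 2-cell to 4-cell step. For the 4-cell to 8-cell step it was 0.88 for each NT type.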

How the results depend on the processing

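Counts of called members moved by over 1.5 times under these alternatives. In 1 fit over all 20 groups, which shares 1 estimate of the spread, they were 2 for in vivo 1-cell to 2-cell, 7 for in vivo morula to blastula, 5 for NTC 1-cell to 2-cell, 17 for NTM 2-cell to 4-cell and 0 for NTM morula to blastula. For NTC against in vivo they were 3 (1-cell), 1 (2-cell), 8 (4-cell), 1 (8-cell) and 9 (blastula), and for NTM against in vivo 4 (2-cell), 1 (8-cell) and 9 (blastula). They were 3 and 1 for NTM against NTC at the 1-cell and 2-cell stages, 10 for MEF against CC, and 8 and 1 for the NTM interactions of the 2-cell to 4-cell and the morula to blastula steps. Without the filter on low values, the counts were 15 for in vivo 4-cell to 8-cell, 7 for NTC and 6 for NTM 1-cell to 2-cell, 0 for each type's morula to blastula step and 0 for NTC against in vivo at the 1-cell stage. With median-ratio scaling they were 14 for in vivo 4-cell to 8-cell, 4 for NTC morula to blastula, and 0 and 1 for NTC against in vivo at the 1-cell and 8-cell stages. With a pseudocount of 0.1 they were 6 for NTM 1-cell to 2-cell, 0 for NTM morula to blastula, 0 for NTC against in vivo at the 1-cell stage, and 1 each for both NT types against in vivo in the blastula, MEF against CC and both morula to blastula interactions. The replicate numbers did not pair the libraries (in 0 of 36 comparisons was every pair's correlation over 0.1), and with a replicate block the counts were 0, 2 and 0 for the morula to blastula step in vivo, in NTC and in NTM, 0 for NTC against in vivo at the 1-cell stage and 1 for NTM against in vivo at the 8-cell stage. The cause of these moves was not tested.

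Leaving out 1 library at a time gave ranges of 18 to 26 for in vivo 2-cell to 4-cell (24 with all), 11 to 22 for in vivo 4-cell to 8-cell, 2 to 14 and 0 to 17 for NTC and NTM 1-cell to 2-cell, 8 to 13 and 4 to 6 for NTC and NTM 2-cell to 4-cell, and 0 to 2 for the morula to blastula step of each type. Against in vivo the ranges were 0 to 10 (NTC) and 0 to 2 (NTM) at the 1-cell stage, 8 to 14 and 5 to 15 at the 4-cell stage, and 0 to 3 and 0 to 2 in the blastula. They were 7 to 15 for NTM against NTC at the 1-cell stage, 0 to 1 for MEF against CC, 15 to 27 for NTC 1-cell embryos against CC and 21 to 31 for NTM 1-cell embryos against MEF. For the interactions 1 replicate of each group was left out at a time, not a single library. Their ranges were 4 to 5 (NTC) and 0 to 4 (NTM) from the 2-cell to the 4-cell stage, and 4 to 6 and 3 to 5 from the 4-cell to the 8-cell stage. Single genes were checked only where they were among the up to 5 called members per direction with the largest change. None of these changed direction under any alternative in which it was tested, and the other named genes were not checked. With 1 library left out, or 1 replicate of each group for the interactions, 453 values for the checked genes kept their direction and their side of the threshold and 108 lost the call. Limits were the 3 embryos per group, amplification without molecular identifiers, and floors of 0.0314 to 0.283 RPKM for a value of 0.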
